A study of Mus musculus with 12 samples.

Results

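The genes described here are 3 cytidine deaminase genes (Apobec1, Apobec2 and Apobec3) and 3 uracil-DNA glycosylase genes (Ung, Smug1 and Tdg), read on 12 microarrays of mouse oral tumours. They were chosen by name and function, as members of the deaminase family tied to mutation in cancers with human papillomavirus (HPV) and as the glycosylases that remove uracil from DNA. These genes, and the lists set beside them below, were chosen with earlier results of these data known. All 6 were found among the 23102 genes measured. The tumours were KHR, with RAS and iHPV (spelled out once as HPV E6 in the labels; n = 6), and KR, with RAS alone (n = 6). Every mouse was a C57BL/6 × FVB F1 hybrid given tamoxifen by intraperitoneal injection. The meaning of the letters, the promoters and cell types that drive the transgenes, and the age and sex of the mice are not stated in the labels. The labels do not say whether each tumour is from its own mouse, so p-values measure only the spread between these samples.

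As background, enzymes of the APOBEC family remove the amino group of cytosine, which turns it into uracil. In human cells the family has several APOBEC3 genes that restrict viruses and can mutate the cell's own DNA, whereas the mouse has a single Apobec3. Uracil also enters DNA when the replication machinery inserts dUTP in place of dTTP. A glycosylase cuts out the uracil base, and the gap is then opened, filled and sealed by base excision repair. Ung is the main glycosylase for uracil at replication forks, Smug1 acts on uracil in single- and double-stranded DNA, and Tdg removes uracil and thymine that lie opposite guanine.

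The values are log2 intensities, and each gene is read as the median over its probesets. In the RefSeq annotation of GRCm38.p6, Apobec1 lies at chr6:122577792-122603024 (11 probesets), Apobec2 at chr17:48419231-48432728 (4 probesets) and Apobec3 at chr15:79892058-79918218 (13 probesets). Ung lies at chr5:114130366-114139321 (11 probesets), Smug1 at chr15:103153290-103168939 (6 probesets) and Tdg at chr10:82629814-82650799 (3 probesets). A further probeset names Tdg together with Gm9855 and was left out. Since Tdg has near-identical copies in the mouse genome, its values are uncertain. The array medians lay between 5.62 and 5.75. The arrays carried the keratins of squamous epithelium at high levels (Krt5 averaged 13.2 in both groups), and B cell markers were near the bottom of the scale, with list means of 3.76 to 3.93 in KHR tumours and 3.77 to 3.93 in KR tumours. Xist, which the silenced X chromosome makes, was at 11.0 to 12.45 on 4 KHR arrays and 2 KR arrays and at 3.81 to 4.74 on the others, so the Xist level was uneven between the groups. Of the immune markers, none of 6 B cell and none of 5 T cell genes passed in limma, against 3.74% of all genes called. At an unadjusted p under 0.05 were 1 B cell gene and 0 T cell genes, against 15.9% of all genes. The mean over the T cell genes was 3.91 to 4.48 in KHR and 3.90 to 4.47 in KR tumours. The smallest p were those of Cd79a (0.19 ± 0.09, SE) and Cd79b (0.16 ± 0.09) among B cell genes and of Cd4 (0.13 ± 0.13) and Cd3e (-0.16 ± 0.20) among T cell genes. Of 8 squamous genes, 1 fell, Krt13 (-1.26 ± 0.22, SE, limma, adjusted p = 0.00571), against 1.03% of all genes called lower. By limma, 3 of the 8 had an unadjusted p under 0.05, against 15.9% of all genes. Besides Krt13 these were Krt4, lower (-1.74 ± 0.72, SE), and Epcam, higher (0.88 ± 0.24). Neither passed (limma, adjusted p = 0.240 and 0.067).

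The promoters of Ung and Smug1 are shown because the changes of this pair differed, and that of Apobec3 because it is the mouse counterpart of the human APOBEC3 genes. Each runs 5′ to 3′ from 250 bases before to 50 after a start site in a table made from RefSeq, assembly GRCm38.p6. These start sites are not the outer ends of the genes given above, and the Smug1 window lies well inside the span of its gene. Ung lies on the plus strand at chr5:114130185-114130484, Smug1 on the minus strand at chr15:103163235-103163534 and Apobec3, at the first of its 2 windows, on the plus strand at chr15:79892158-79892457. Capitals mark matches, on either strand, to 5 searched motifs: an E2F site (TTTCCCGC, TTTGGCGC, TTTGCCGC or TTTCGCGC), an interferon-stimulated response element (GAAA, then 2 bases of any kind, then GAAA), a gamma-activated site (TTCNNNGAA), a CCAAT box (CCAAT) and a GC box (GGGCGG).
Ung: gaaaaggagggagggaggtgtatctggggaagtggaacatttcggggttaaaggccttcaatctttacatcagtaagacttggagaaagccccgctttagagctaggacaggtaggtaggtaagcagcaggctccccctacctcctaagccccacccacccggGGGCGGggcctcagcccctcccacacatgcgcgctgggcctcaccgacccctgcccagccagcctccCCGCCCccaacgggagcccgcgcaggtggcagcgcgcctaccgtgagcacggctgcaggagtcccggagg
Smug1: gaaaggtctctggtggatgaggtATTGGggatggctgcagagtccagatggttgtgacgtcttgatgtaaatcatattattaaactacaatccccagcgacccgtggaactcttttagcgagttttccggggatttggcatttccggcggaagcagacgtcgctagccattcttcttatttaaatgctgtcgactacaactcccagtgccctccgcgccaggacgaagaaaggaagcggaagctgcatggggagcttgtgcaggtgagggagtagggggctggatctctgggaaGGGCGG
Apobec3: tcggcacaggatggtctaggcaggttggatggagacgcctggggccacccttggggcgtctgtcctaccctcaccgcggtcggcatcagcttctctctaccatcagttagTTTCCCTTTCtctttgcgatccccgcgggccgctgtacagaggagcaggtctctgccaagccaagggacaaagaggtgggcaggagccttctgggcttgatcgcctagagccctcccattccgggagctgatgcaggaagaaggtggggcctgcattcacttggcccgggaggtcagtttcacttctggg
The Ung window held 2 GC boxes and none of the other motifs, with 64.7% G and C bases. The Smug1 window held 1 CCAAT box and 1 GC box, with 53.0% G and C. The Apobec3 window shown held 1 match to the interferon-stimulated response element, from base -140 to base -131 relative to that start site. The second window of Apobec3, not shown, held 1 CCAAT box and none of the other motifs. Of 32851 windows of the same length, 2.26% held the E2F letters, 3.44% the interferon element, 8.30% the gamma-activated site, 37.4% a CCAAT box and 35.7% a GC box. The window of Apobec1 held no match, Apobec2 held 2 CCAAT boxes and 1 GC box, and Tdg held 1 gamma-activated site and 1 CCAAT box. A match is a run of letters and not a measured binding site.

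None of the 6 genes passed the test between KHR and KR tumours. Among all genes measured, limma called 3.74% at an adjusted p under 0.05, with 2.71% higher in KHR and 1.03% lower. By limma, only Ung of the 6 had an unadjusted p under 0.05, which 15.9% of all genes had. The mean was higher in KHR tumours for 5 of the 6 genes, against 51.0% of all genes, and the exception was Smug1. The median change of the 6 was 0.27 on the log2 scale and that of all genes 0.0045. For none of the 6 did the 2 groups stand apart without overlap, which 2.67% of all genes did.

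**Figure D1:**
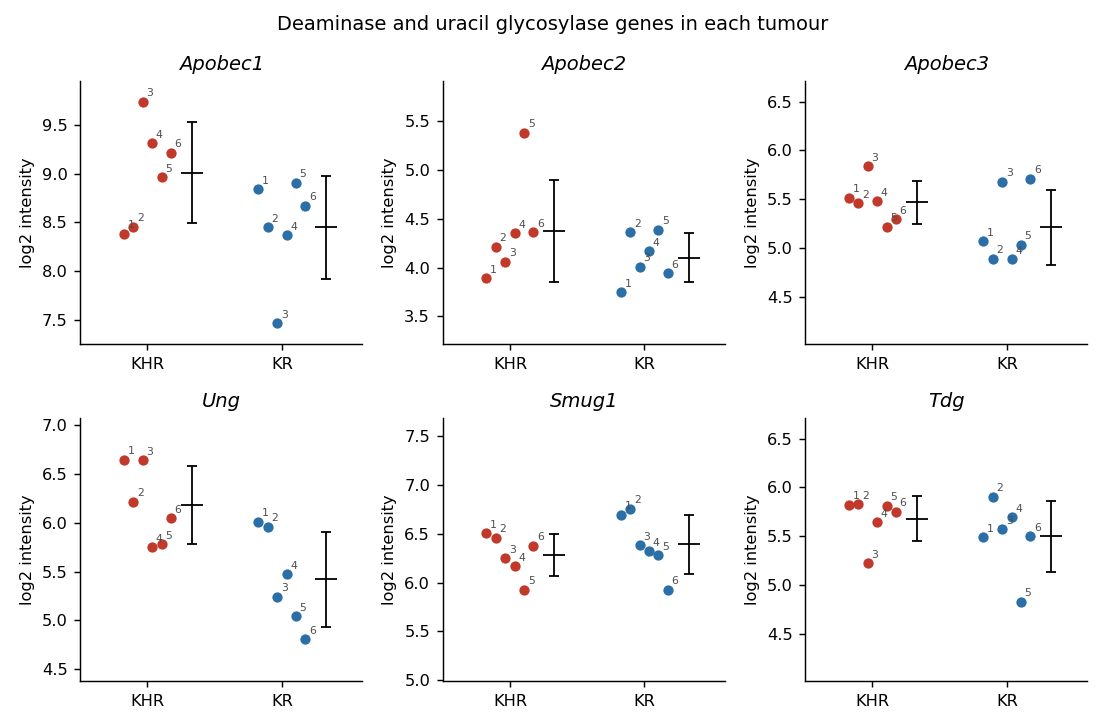
Log2 intensity of the 6 genes on each array, with KHR tumours left of KR tumours in each panel; numbers are replicates, the horizontal mark is the group mean and the bar is 1 SD (n = 6 each), and all panels span the same number of log2 units. The groups overlap in every panel, and Ung shows the widest distance between the means, 6.18 against 5.42.

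Ung came closest to the threshold. Its values ran from 5.75 to 6.65 in KHR tumours with a median of 6.13, and from 4.81 to 6.01 in KR tumours with a median of 5.36. The 2 highest KR tumours, KR 1 and KR 2, lay above the 2 lowest KHR tumours, KHR 4 and KHR 5, and the other KR tumours lay below every KHR tumour. The means were 6.18 ± 0.40 in KHR and 5.42 ± 0.49 in KR tumours (SD, n = 6 each). The log2 change was 0.76 ± 0.23 (SE), or 1.69-fold, with a 95% interval of 0.27 to 1.25 (limma, adjusted p = 0.0913). The size depends on how probesets are joined: with the mean over probesets it was 0.44 and with median polish 0.44, neither past the threshold. With the mean of 12 skeletal muscle genes as a covariate it was 0.92 and passed (limma, adjusted p = 0.042).

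Smug1 was the member with the lower mean in KHR tumours. Its values ran from 5.93 to 6.51 in KHR tumours (median 6.31) and from 5.93 to 6.76 in KR tumours (median 6.35). The 2 highest values were both from KR tumours, KR 1 and KR 2. The change was -0.11 ± 0.14 (SE; 95% interval -0.42 to 0.20; limma, adjusted p = 0.786).

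Tdg, from 3 probesets, ran from 5.22 to 5.83 in KHR tumours (median 5.78) and from 4.83 to 5.90 in KR tumours (median 5.53). The lowest tumours were KR 5 and KHR 3, and the other 10 lay between 5.49 and 5.90. The change was 0.18 ± 0.16 (SE; 95% interval -0.17 to 0.53; limma, adjusted p = 0.665), and median polish turned its sign (-0.012).

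Ung and Smug1 nevertheless changed by different amounts. On each array the log2 value of Ung minus that of Smug1 was taken, which leaves out what moves both genes alike on that array. This difference ran from -0.42 to 0.39 in KHR tumours (median -0.20) and from -1.24 to -0.69 in KR tumours (median -0.98). Every KHR tumour lay above every KR tumour. The means were -0.10 ± 0.31 in KHR tumours and -0.97 ± 0.22 in KR tumours (SD, n = 6 each), which differ by 0.87 ± 0.16 (SE). The exact permutation test, two-sided, gave p = 0.002165, the smallest that 6 against 6 arrays can give, and adjusted p = 0.0130 over the 6 pairs of genes compared. When every other gene on the array was set against Smug1 in the same way, 0.870% of genes had all KHR arrays above all KR arrays. For the level of a gene by itself the same held for 1.83%. With the mean over probesets the difference was 0.53, with the same adjusted p. The result shows that the 2 genes changed unequally and does not say which of them moved.

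The difference was of like size in tumours of both Xist levels. Among tumours with high Xist, Ung minus Smug1 averaged -0.12 in 4 KHR and -0.98 in 2 KR tumours. Among those with low Xist, it averaged -0.051 in 2 KHR and -0.97 in 4 KR tumours. The gaps of 0.86 and 0.92 were not tested, since each side held too few tumours.

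**Figure D2:**
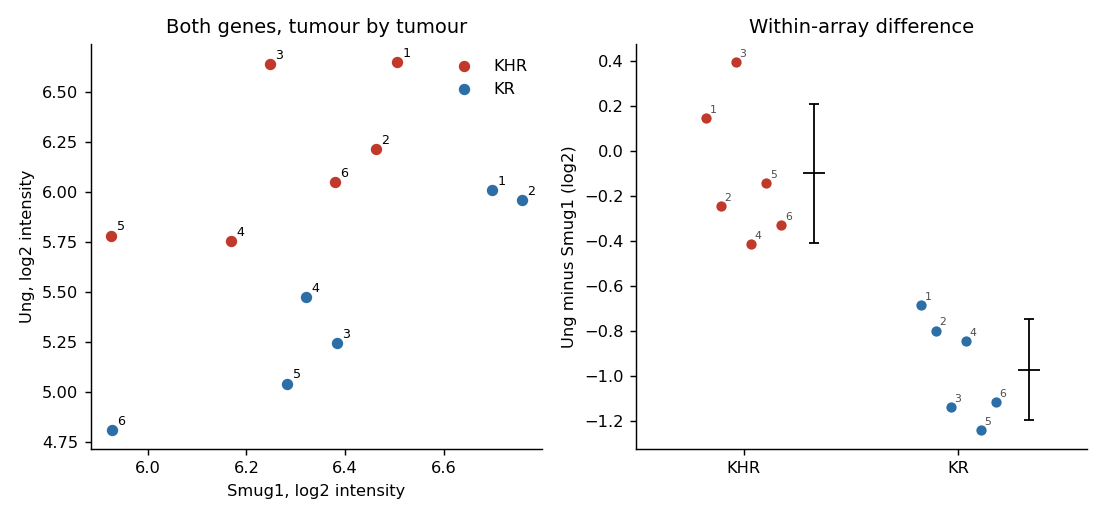
Left, Ung against Smug1, both in log2 intensity, one point per tumour with its replicate number; right, Ung minus Smug1 on each array (log2), with KHR left of KR, group mean and 1 SD (n = 6 each). At a given Smug1 level the KHR points lie above the KR points, and in the right panel the lowest KHR tumour, at -0.42, is above the highest KR tumour, at -0.69.

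The levels of Ung and Smug1 were also set against each other within each group, where Pearson's r in KR tumours passed after adjustment and Spearman's rho did not. Pearson's r was 0.64 over the 6 KHR tumours and 0.95 over the 6 KR tumours (exact permutation, two-sided, p = 0.176 and p = 0.00833; adjusted over 4 tests, 0.176 and 0.0333). Spearman's rho was 0.77 in KHR and 0.89 in KR tumours (exact permutation p = 0.103 and 0.0333; adjusted 0.137 and 0.0667). Without the 2 tumours farthest from the median of Smug1, r was 0.19 in KHR and 0.91 in KR tumours. This pair was looked at after its values were seen.

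The other pairs of glycosylases did not differ past the threshold. Ung minus Tdg was higher by 0.58 ± 0.28 (SE) in KHR tumours (exact permutation p = 0.0649; adjusted 0.195). Tdg minus Smug1 was higher by 0.30 ± 0.20 (exact permutation p = 0.167; adjusted 0.333).

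Among the deaminases, Apobec1 showed the widest gap. Apobec1 was first known as the enzyme that edits the apolipoprotein B messenger RNA in the gut. Its values ran from 8.38 to 9.74 in KHR tumours (median 9.09) and from 7.46 to 8.91 in KR tumours (median 8.56). In KHR, 4 tumours lay above all KR tumours, KHR 1 and KHR 2 lay among the KR tumours, and KR 3 lay far below the rest. The means were 9.01 ± 0.52 in KHR and 8.45 ± 0.53 in KR tumours (SD, n = 6 each), a change of 0.56 ± 0.27 (SE; 95% interval -0.0082 to 1.13; limma, adjusted p = 0.325). The 4 highest KHR tumours were the 4 with high Xist. Among tumours with high Xist, Apobec1 averaged 9.31 in KHR and 8.52 in KR tumours, and among those with low Xist 8.42 in KHR and 8.41 in KR tumours. With the Xist level as a covariate the change was 0.41 (limma, adjusted p = 0.530). The part of sex in this pattern was not tested.

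Apobec3, the single mouse member of the virus-restricting branch, ran from 5.22 to 5.84 in KHR tumours (median 5.47) and from 4.88 to 5.71 in KR tumours (median 5.05). In KR, 4 tumours lay below every KHR tumour, while KR 3 and KR 6 lay near the top. The change was 0.26 ± 0.17 (SE; 95% interval -0.099 to 0.61; limma, adjusted p = 0.511).

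Apobec2 is the family member of heart and skeletal muscle and has no firmly known substrate. It ran from 3.89 to 5.38 in KHR tumours (median 4.28) and from 3.75 to 4.39 in KR tumours (median 4.09). Apart from KHR 5, the KHR tumours lay within the range of the KR tumours, under the middle of all gene levels (4.98). The change was 0.27 ± 0.21 (SE; 95% interval -0.18 to 0.73; limma, adjusted p = 0.600), and it was 0.074 without KHR 5. No pair of the 3 deaminases passed the test of a difference in change (differences of 0.29, 0.31 and -0.019; exact permutation, lowest adjusted p = 0.561).

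The relation of Apobec2 with muscle genes within each group did not pass after adjustment. KHR 5, with the highest Apobec2 value, also had the highest mean over 12 skeletal muscle genes, 7.71, within a range of 5.43 to 7.71 in KHR tumours and 5.39 to 6.58 in KR tumours. None of the 12 muscle genes passed in limma, against 3.74% of all genes called. At an unadjusted p under 0.05 there were 0, against 15.9% of all genes. The smallest p were those of Actn3 (0.45 ± 0.23, SE) and Mylpf (0.88 ± 0.49). Pearson's r of Apobec2 with the muscle mean was 0.87 over the 6 KHR and 0.93 over the 6 KR tumours (exact permutation, two-sided, p = 0.0194 and 0.0125; adjusted 0.104 for both over 16 tests). Spearman's rho was 0.66 in KHR and 0.94 in KR tumours (exact permutation p = 0.175 and 0.0167; adjusted 0.353 and 0.104). Without the 2 tumours farthest from the median muscle mean, r was 0.23 in KHR and 0.77 in KR tumours, so in KHR it rests on those tumours. With the muscle mean as a covariate, the Apobec2 change was 0.029 (limma, adjusted p = 0.955). In a bulk tumour sample, fewer cells of a type and less RNA per cell cannot be told apart.

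**Figure D3:**
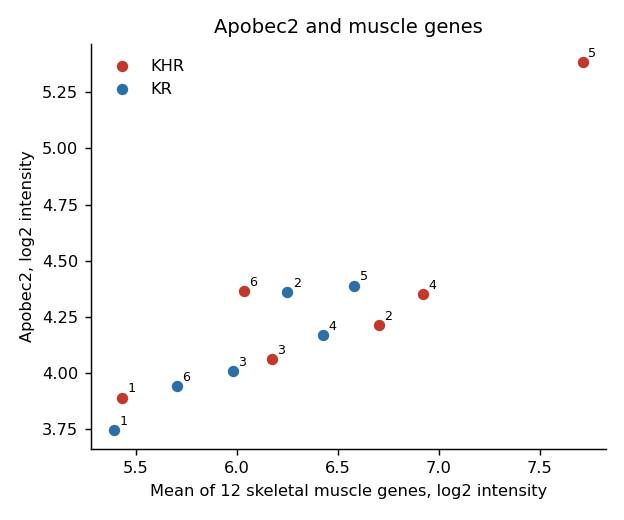
Apobec2 against the mean of 12 skeletal muscle genes, both in log2 intensity, one point per tumour with its replicate number. KHR 5 is highest on both axes, at 5.38 and 7.71, and among KR tumours Apobec2 runs from 3.75 to 4.39 along a muscle mean of 5.39 to 6.58.

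The other relations looked at within groups did not pass after adjustment. Apobec3 against the mean of 14 interferon response genes gave r = -0.73 in KHR and -0.065 in KR tumours (rho = -0.66 and -0.029; exact permutation, lowest adjusted p = 0.333; r = -0.80 and 0.57 without the 2 farthest). The interferon means themselves ran from 4.74 to 5.20 in KHR and from 4.41 to 4.67 in KR tumours. Of the 14 genes, 13 had a higher mean in KHR tumours, against 51.0% of all genes, and the median change was 0.33. By limma, 5 had an unadjusted p under 0.05, against 15.9% of all genes. Only Oasl2 passed (0.75 ± 0.19, SE, limma, adjusted p = 0.0431), against 2.71% of all genes called higher. Oasl2 no longer passed when any 1 array other than KHR 2 or KHR 3 was left out, with array medians subtracted, or with the Xist or muscle covariate. Apobec1 against the mean of 9 macrophage genes gave r = 0.14 in KHR and -0.81 in KR tumours (rho = 0.26 and -0.26; exact permutation, lowest adjusted p = 0.333; r = 0.26 and 0.17 without the 2 farthest). All 9 had a higher mean in KHR tumours, against 51.0% of all genes. By limma, 3 of them had an unadjusted p under 0.05, against 15.9% of all genes. Only Ms4a7 passed (1.15 ± 0.29, SE, limma, adjusted p = 0.0433), against 2.71% of all genes called higher. With median polish Ms4a7 was at 0.50 and did not pass. Nor did it pass when any 1 array other than KHR 1, KHR 5 or KR 3 was left out, or with the Xist or muscle covariate. The macrophage mean ran from 5.99 to 6.65 in KHR and from 5.56 to 6.28 in KR tumours, and its part in the Apobec1 values was not tested further. Ung against the mean of 14 replication genes gave r = 0.46 in KHR and -0.66 in KR tumours (rho = 0.086 and -0.43; exact permutation, lowest adjusted p = 0.353; r = 0.12 and -0.74 without the 2 farthest). All 14 replication genes rose, against 2.71% of all genes called higher. In 13 of them all KHR tumours lay above all KR tumours, against 1.83% of all genes. The list was chosen with earlier results of these data known. Its smallest p-values were those of Prim1, Mcm6, Mcm4 and Rrm1. The mean over the 14 genes ran from 8.91 to 9.35 in KHR and from 7.85 to 8.08 in KR tumours.

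The array reads several probesets of each gene, and unequal change among them passed no test for any of the 6 genes. All 11 probesets of Apobec1 and all 4 of Apobec2 had a higher mean in KHR tumours, as did 11 of 13 for Apobec3, 8 of 11 for Ung, 2 of 6 for Smug1 and 3 of 3 for Tdg. Fitted one by one over all probesets, 1 probeset of Ung passed, the eighth, higher by 1.26 ± 0.27 (SE; limma, adjusted p = 0.0437), against 0.721% of all probesets called higher. The 11 probesets of Ung ran from -0.84 to 1.26 and those of Apobec1 from 0.16 to 1.39.

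The 3 probesets of Ung with a lower mean in KHR tumours were the second, the third and the fourth. The fourth, at -0.84 ± 0.66 (SE), varied most between tumours (6.45 ± 1.14 in KHR and 7.29 ± 1.43 in KR, SD, n = 6 each). The second and the third lay at 3.64 and 3.19 in KHR and at 3.66 and 3.42 in KR tumours, below the median probeset level of 5.90. Without the fourth probeset, an alternative chosen after its values were seen, the Ung change was 0.83 (limma, adjusted p = 0.0401). Set against the gene's own value on each array, the third probeset differed by -0.99 ± 0.18 (SE) and did not pass (limma, adjusted p = 0.0920), and no probeset of the 6 genes did, against 0.0398% of all probesets. The files do not say which exon a probeset reads. The test of limma for unequal probeset use (diffSplice) called 5.28% of genes and none of the 6, Ung being nearest (adjusted p = 0.0679). On simulated data most of that test's calls were false, so nothing is read from it.

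**Figure D4:**
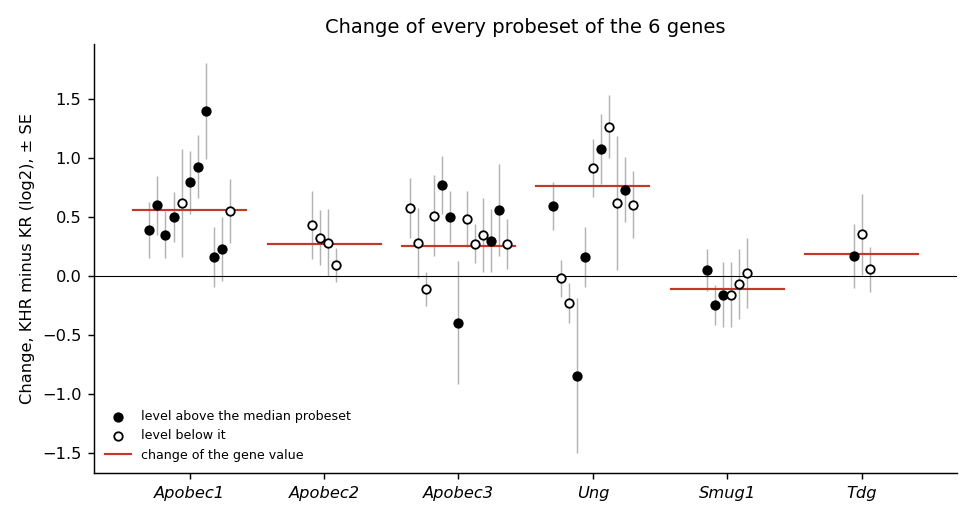
Change of every probeset of the 6 genes, KHR minus KR (log2), in the order of their IDs, with 1 SE; filled points lie above the median level of all probesets, open points below it, and the red line is the change of the gene value. Smug1 points gather around 0, while those of Ung run from -0.84 to 1.26.

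Genes that share the variation of each member among tumours of the same group were also read. Over the 12 arrays, with each group's mean removed, the closest of 10212 genes to Apobec1 was Krt4, a keratin of the oral suprabasal layers (r = 0.935), followed by Sptlc2 (0.901), of sphingolipid synthesis, and Oit1 (0.879). Krt4 itself differed between the groups by -1.74 ± 0.72 (SE; limma, adjusted p = 0.240), the opposite sign to Apobec1. The closest to Ung were Hyi (0.951), Bdh1 (0.937), an enzyme of ketone body metabolism, and Grpel1 (0.894), of mitochondrial protein import. For Apobec2 they were Etfa (0.940), Ddx50 (0.930) and Oip5os1 (0.929), and for Apobec3 Mtrr (0.866), Zfp263 (0.865) and Mcm3ap (0.860). For Smug1 they were Ankrd9 (0.919), Sipa1l2 (0.918) and Tedc1 (0.913), and for Tdg Slc10a6 (0.846), Rapgefl1 (0.844) and Ube2d-ps (0.831). These are the highest of many values from the same arrays and are given as descriptions.

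Among the other steps of uracil handling, dUTP and dTTP supply held 3 calls. Of 7 measured genes of dUTP and dTTP supply, 3 rose and none fell, with a median change of 0.48. Among all genes, 2.71% were called higher and 1.03% lower. All KHR tumours lay above all KR tumours for Tyms, Shmt1 and Dtymk, against 1.83% of all genes. Dtymk was higher by 0.27 ± 0.09 (SE) and did not pass (limma, adjusted p = 0.114). Dut, which breaks down dUTP, ran from 6.90 to 7.53 in KHR tumours (median 7.24) and from 5.73 to 6.93 in KR tumours (median 6.57). KHR and KR tumours of Dut met at the edge, and the change was 0.79 ± 0.18 (SE; limma, adjusted p = 0.0270; 0.39 with the mean over probesets; not passed without any one of KHR 3, KHR 4, KHR 5, KHR 6, KR 2 or KR 3, after quantile normalization, adjusted p = 0.0511, or with the muscle covariate, adjusted p = 0.0661). Tyms, the thymidylate synthase that turns dUMP into dTMP, ran from 7.59 to 8.01 in KHR tumours (median 7.82) and from 6.33 to 7.42 in KR tumours (median 6.76). All KHR tumours lay above all KR tumours, and Tyms rose by 1.01 ± 0.17 (SE; limma, adjusted p = 0.00391; 0.42 with median polish). Shmt1, which supplies the folate carbon for that step, rose by 0.50 ± 0.11 (SE; limma, adjusted p = 0.0210; 0.20 with median polish, adjusted p = 0.0875; not passed without any one of KHR 3, KHR 4 or KR 2, with array medians subtracted, adjusted p = 0.0509, or with the Xist covariate, adjusted p = 0.0556). All 14 replication genes rose as well, and their part in these changes was not tested.

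Other steps held fewer calls. Of 11 measured genes of abasic site processing and base excision repair, 8 had a higher mean in KHR tumours, against 51.0% of all genes. By limma, 4 of the 11 had an unadjusted p under 0.05, against 15.9% of all genes. Only 1 passed, the ligase gene Lig1, which also joins Okazaki fragments. Among all genes, 2.71% were called higher and 1.83% had all KHR arrays above all KR arrays. Lig1 ran from 8.74 to 8.94 in KHR tumours and from 7.70 to 8.09 in KR tumours, with no overlap, and rose by 0.94 ± 0.08 (SE; limma, adjusted p = 5.11e-05). The next genes are named for their roles, after their values were seen. Lig3, the ligase that pairs with Xrcc1, differed by -0.094 ± 0.093, and Xrcc1 itself by -0.27 ± 0.14, neither past the threshold. Apex1, the main endonuclease at abasic sites, was higher by 0.42 ± 0.12 (limma, adjusted p = 0.0798), and Polb, the repair polymerase, by 0.061 ± 0.16 (adjusted p = 0.913). Fen1 and Parp1 also had an unadjusted p under 0.05 by limma. Fen1 was higher by 0.75 ± 0.28 (SE) and Parp1 by 0.31 ± 0.13, neither past the threshold (limma, adjusted p = 0.1755 and 0.2358).

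Of 8 other DNA glycosylases none passed in limma, against 3.74% of all genes called. Of these 8, 2 had an unadjusted p under 0.05, against 15.9% of all genes. Mbd4, which removes uracil and thymine at CpG sites, was higher by 0.52 ± 0.16 (SE; limma, adjusted p = 0.110), and Mutyh, which acts on adenine opposite oxidised guanine, by 0.50 ± 0.21 (adjusted p = 0.245). Both passed with the mean over probesets, at 0.40 (limma, adjusted p = 0.00877) and 0.35 (adjusted p = 0.0397). With median polish Mbd4 passed at 0.354 (limma, adjusted p = 0.00721), while Mutyh, at 0.208, did not (adjusted p = 0.1195). Of 7 genes of lesion bypass, 5 had a higher mean in KHR tumours, against 51.0% of all genes. An unadjusted p under 0.05 by limma was found for 3 of the 7, against 15.9% of all genes. Only Rad18, the ubiquitin ligase that starts lesion bypass, passed, against 2.71% of all genes called higher. Rad18 rose by 0.90 ± 0.19 (SE, limma, adjusted p = 0.0162), with values of 7.99 to 8.88 in KHR against 7.23 to 8.19 in KR tumours. Of 5 measured relatives and cofactors of the deaminases none passed in limma, against 3.74% of all genes called. Of these 5, 2 had an unadjusted p under 0.05, against 15.9% of all genes. The nearest were the RNA-binding genes Syncrip (0.21 ± 0.09) and Khsrp (0.25 ± 0.11).

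**Figure D5:**
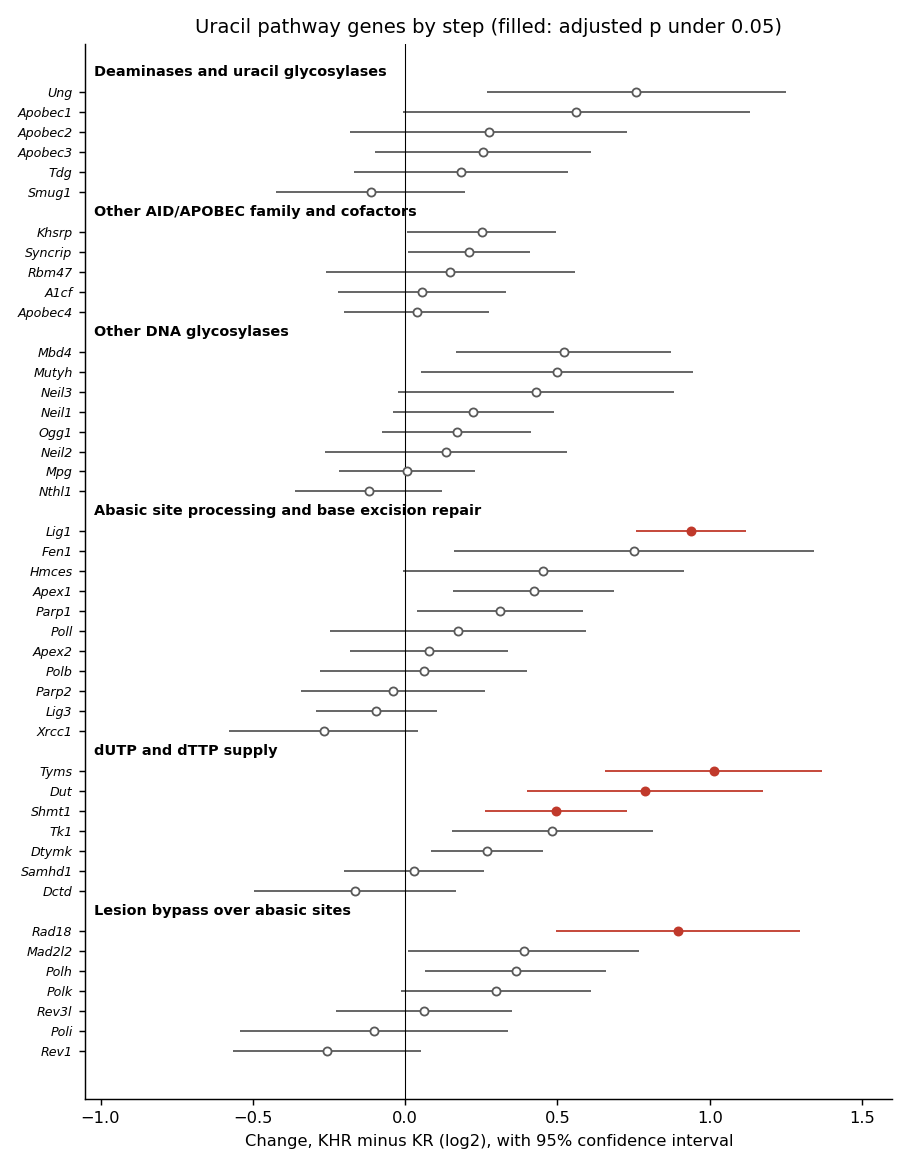
Change of each measured gene of the uracil pathway, KHR minus KR (log2), with its 95% confidence interval, grouped by step and sorted within each group; filled red points passed the test over all genes. Tyms, Dut, Shmt1, Lig1 and Rad18 are filled, and Ung at 0.76 is the open point farthest right, with Fen1 at 0.75 beside it.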

How the data were processed

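Total RNA of 12 oral tumours, 6 KHR and 6 KR, was hybridised to Affymetrix Mouse Gene 2.0 ST arrays read at exon level. The deposited values are log2 intensities for 269751 probesets, with Partek named in the submitters' processing notes; background correction and normalization, and the build, stand in none of the sources used. Arrays carry no read depth, and their number limits the precision. Of the probesets, 233753 name 1 gene symbol, 5106 several and 30892 none. Symbols were updated through RefSeq (GRCm38.p6), and the median over the probesets of 1 symbol gave the value of 23102 genes. Groups were compared with limma 3.58.1 in R 4.3.3 (lmFit, eBayes), as KHR minus KR, with Benjamini-Hochberg adjustment over all genes and a threshold of 0.05. Exact permutation tests were written in Python 3.11.15 with numpy 2.4.6, with ranks taken by scipy 1.17.1. In simulated arrays limma recovered 88 of 100 genes changed by 1 and 29 of 100 changed by 0.5 on the log2 scale; diffSplice recovered 166 of 200 genes with 632 false calls. The genes and lists were chosen with earlier results of these data known. Named are the 6 genes, and of each list the genes past the threshold (at most 4) or else the 2 with the smallest p. For each of the 6, the 3 genes with the highest correlation are named. The list genes Krt5, Epcam, Dtymk, Lig3, Xrcc1, Apex1, Polb, Fen1 and Parp1 are named outside this rule. Same-numbered tumours correlated from -0.0029 to 0.23 in their deviations from the group means, so numbers were not treated as pairs. Other ways to join probesets, scale arrays, filter, weight and adjust were tried, and each array was left out in turn.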

Additional observations from a re-analysis of the deposited data

Results flagged for a closer look

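In 4 of 38 groups of 6 values tested, the highest or lowest tumour stood apart from the other 5 by Dixon's criterion, which chance meets in about 5% of groups. KR 3 had an Apobec1 value of 7.463, with the nearest KR tumour at 8.365. KR 3 also had a mean over the squamous genes of 11.37, with the nearest at 11.8. KHR 5 had an Apobec2 value of 5.383, with the nearest KHR tumour at 4.366, and it was the tumour with the highest muscle mean. KHR 3 had a Tdg value of 5.223, with the nearest at 5.642. Without KHR 5 the Apobec2 change was 0.0738, against 0.27 with all tumours.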

How the results depend on the processing

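None of the 6 genes was called when any array was left out, and Ung then ran from 0.636 to 0.877 (limma, adjusted p 0.0561 to 0.187). Ung passed with the replicate number as a block (0.759, adjusted p = 0.0379), with the muscle mean as a covariate (0.916, adjusted p = 0.042) and without the fourth probeset (0.833, adjusted p = 0.0401; added after seeing the data), so 1 of the 6 genes was called in the first and second of these. The labels do not say what the numbers mark, and these values cannot settle whether they pair the tumours. Of 6 same-number pairs, 2 correlated above 0.1, and 1 of 6 tumours correlated best with its own number. With the block 1 muscle, 2 macrophage, 2 squamous and 0 interferon genes were called. Ung minus Smug1 was 0.533 with the mean over probesets, where the groups again did not overlap (exact permutation, adjusted p = 0.0130). Leaving out arrays gave 0.774 to 0.936; since the groups are fully separate, the p is then at its smallest possible value by construction and says nothing about stability. With the mean over probesets 973 genes were higher and 472 lower (main 625 and 238), and the calls were 2 other glycosylases, 3 base excision repair, 2 lesion bypass, 3 interferon, 2 macrophage and 2 squamous genes; Apobec3 minus Apobec2 turned to 0.0529, Cd79b to -0.0165, and Pearson r of Apobec2 with muscle in KR was 0.96 (exact permutation, adjusted p = 0.0222). With median polish 424 genes were lower, 1 other glycosylase and 2 squamous genes were called, and Tdg turned to -0.0119 and Cd79b to -0.029. With array medians subtracted 362 genes were lower and 0 interferon genes called. With the Xist level as covariate 416 genes were higher and 139 lower, with 0 interferon and 0 macrophage genes; with the muscle covariate 153 were lower, with 0 interferon genes. Above the median level, 0 interferon and 2 squamous genes were called, and with array weights 2 interferon genes. Leaving out arrays gave 400 to 797 genes higher (400 without KHR 4 or KR 2) and 123 to 288 lower (123 without KHR 4, 131 without KR 2, 151 without KR 6). It also gave 0 to 1 other glycosylases (Mbd4, 0.63 without KR 4), 1 to 3 dUTP and dTTP supply genes, 0 to 1 interferon, 0 to 1 macrophage and 1 to 2 squamous genes, and -0.157 to 0.232 for Apobec3 minus Apobec2. Of all calls, 72.4% were higher in KHR, against 60.6% after quantile normalization and 56.4% with array medians subtracted; these scalings moved the median change of all genes to -0.0113 and -0.0597. The causes were not tested. Dim probesets, such as those of Apobec2, limit what can be seen.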
